A study of Mus musculus with 4 samples.

Results

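The Gnas cluster is an imprinted stretch of mouse chromosome 2 that holds Gnas and the antisense gene Nespas. Its members were all genomic probes of the array whose mm9 coordinates lie in an 85 kb interval set around these genes, which gave 318 of 174638 probes. DNA methylation was measured by precipitating DNA with an antibody against 5-methylcytosine and hybridizing it beside the unprecipitated input to a tiling array (MeDIP-chip). All samples came from 3T3-L1, fibroblasts of mouse embryo origin that become adipocytes once induced. There were 4 groups with 1 array each, shRNA8 cells at day +2, shRNA8 cells at day -2, control cells at day +2 and control cells at day -2. The shRNA8 cells were stably transfected with shRNA8 against slincRAD, a long non-coding RNA, and the control cells were the wild type line. The labels do not say what drives the shRNA or whether the stable line is 1 clone, and no line with an unrelated shRNA was among the arrays, so carrying any shRNA and carrying this one cannot be told apart. All cells were grown in DMEM with newborn calf serum, and induction began at confluence, on day 0, with 167 nM insulin, 1 µM dexamethasone and 0.5 mM 3-isobutyl-1-methylxanthine. Samples of day -2 had not been induced. The arrays measured DNA, so neither the level of slincRAD nor any marker RNA of the cells could be checked.

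Gnas encodes the alpha subunit of the stimulatory G protein, which couples hormone receptors to adenylyl cyclase and so to cyclic AMP. Several promoters of the locus splice onto shared downstream exons. From upstream to downstream they are the promoter of Nesp, which encodes a secretory protein, that of Gnasxl, which encodes a long form of the alpha subunit, that of exon 1A, which gives a non-coding transcript, and that of Gnas exon 1. Nespas starts near the Gnasxl promoter and runs in the opposite direction across Nesp. In the mouse the Nesp promoter is methylated on the paternal allele, the Nespas, Gnasxl and exon 1A promoters are methylated on the maternal allele, and the exon 1 promoter is unmethylated on both. The arrays read both parental alleles together. Cyclic AMP is also the signal that 3-isobutyl-1-methylxanthine, an inhibitor of its breakdown, raises during induction.

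The RefSeq promoter table for GRCm38.p6, a later build than that of the arrays, holds 4 entries for Gnas, all on the + strand. Each spans 250 bases before and 50 bases after a transcript's start. The first, the second and the last are shown because they let a reader see the sequence that the antibody could bind, with the dinucleotide CG, the main site of methylation in mammals, in capitals. The third overlaps the second by 281 of its 300 bases and is not shown.
First Gnas entry, chr2:174284070-174284369: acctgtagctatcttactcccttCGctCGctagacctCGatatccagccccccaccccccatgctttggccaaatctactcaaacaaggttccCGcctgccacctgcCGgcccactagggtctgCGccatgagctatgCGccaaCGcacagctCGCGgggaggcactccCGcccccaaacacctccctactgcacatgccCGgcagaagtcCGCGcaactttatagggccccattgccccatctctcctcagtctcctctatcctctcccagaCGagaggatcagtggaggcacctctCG
Second Gnas entry, chr2:174327499-174327798: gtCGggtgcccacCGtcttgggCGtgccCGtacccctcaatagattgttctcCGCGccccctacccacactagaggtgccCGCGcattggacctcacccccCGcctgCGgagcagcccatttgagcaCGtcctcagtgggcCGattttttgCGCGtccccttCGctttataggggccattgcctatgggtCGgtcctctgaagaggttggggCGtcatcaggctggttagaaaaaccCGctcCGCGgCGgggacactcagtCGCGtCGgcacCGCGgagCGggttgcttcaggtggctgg
Last Gnas entry, chr2:174329756-174330055: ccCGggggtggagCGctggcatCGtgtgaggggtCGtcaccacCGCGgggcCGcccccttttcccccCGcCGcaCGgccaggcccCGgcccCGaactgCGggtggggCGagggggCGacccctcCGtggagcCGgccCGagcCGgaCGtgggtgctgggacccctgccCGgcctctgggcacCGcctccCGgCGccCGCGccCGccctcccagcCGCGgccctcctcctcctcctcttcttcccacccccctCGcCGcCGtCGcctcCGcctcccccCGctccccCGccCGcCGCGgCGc
The first entry held 16 CG, the second 27 and the last 40, and their shares of G and C were 61.0%, 64.3% and 81.7%. The motif CG, searched as these 2 letters and the same on both strands, occurred in 94.6% of the 32851 promoters of the table, with a median of 7 and an upper quartile of 20. Fewer CG were held by 67.0% of those promoters than by the first entry, by 84.5% than by the second and by 96.1% than by the last. In the known order of starts, the first entry stands where Nesp does, the second where exon 1A does and the last where Gnas exon 1 does. Gnasas1, whose synonym is Nespas, is listed in the RefSeq gene table.

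On the array the cluster was tiled without a break. The 318 probes ran over chr2:174100927-174176708 in mm9, 75782 bp in all, with a median step of 208 bp and a longest step of 981 bp. It was the widest of the 22125 tiled blocks on the array, whose median width was 1644 bp. No probe of the cluster was marked as saturated, non-uniform or an outlier. The input signal lay above background in all 4 arrays for 168 probes, or 52.8%, against 54.4% of all probes, and the ratios below rest on these 168. The other 150 probes gave no ratio here. The passing probes formed 11 segments of 3 to 39 probes with no gap over 1000 bp, named S1 to S11 in order along the chromosome, with 9 further probes in smaller groups.

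Short probes marked out 4 stretches. Of the cluster's probes 147 had 45 bp, the shortest length on the array, and in 4 places at least 8 of 10 consecutive probes had it. Stretch A lay at chr2:174109101-174113638 with 21 probes, of which 16 passed. Stretch B lay at chr2:174118770-174126355 with 33 probes, of which 21 passed. Stretch C lay at chr2:174151597-174157119 with 22 probes, of which 15 passed. Stretch D lay at chr2:174169620-174174154 with 21 probes, of which 16 passed. The centres of stretches A and C were 42988.5 bp apart in mm9, and the first and second Gnas entries of the later build start 43429 bp apart. Stretches A, B and C thus stand in the order of the Nesp promoter, the promoters of Nespas and Gnasxl, and the promoters of exon 1A and exon 1. This match by order and spacing was not checked against an annotation of mm9, and the stretches are called by their letters.

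Along the cluster, over all probes passing or not, the immunoprecipitated DNA (IP) gave a higher median signal in the 4 stretches than outside them. The median background-subtracted IP signal of stretch C, the brightest of the 4, was 177 in shRNA8 cells at day +2, 163 in shRNA8 cells at day -2, 153 in control cells at day +2 and 147 in control cells at day -2. Stretch A had 89.0, 92.4, 78.3 and 76.7 in the same order of arrays. Outside the stretches the medians were 32.6, 33.6, 29.7 and 29.5. The order of stretches C, D, A and B in IP held in 3 arrays, and in shRNA8 cells at day -2 stretch A lay above stretch D, which had 86.3. In each stretch both arrays of shRNA8 cells lay above both arrays of control cells, as did the medians over all probes of the array, at 56.5 and 56.1 in shRNA8 cells at day +2 and day -2, against 48.9 and 49.1 in control cells. Of the probes outside the stretches 45.2% passed, against 63.6% to 76.2% in the stretches. Among passing probes alone, the contrast between stretches and the rest did not hold by segment. In shRNA8 cells at day -2, segments with no stretch had IP medians from 85.7 in S3 to 256 in S1. Those of the segments that hold the stretches ran from 89.1 in S4 to 206 in S10.

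Input, too, was brighter in the same places by the medians over all probes, passing or not. Among passing probes in shRNA8 cells at day -2, segments with no stretch had input medians from 12.8 in S6 to 43.5 in S1. The segments that hold the stretches overlapped them, from 21.6 in S4 to 57.1 in S10. The medians that follow are again over all probes. In stretch C its median was 30.9 in shRNA8 cells at day +2, 37.8 in shRNA8 cells at day -2, 24.3 in control cells at day +2 and 24.7 in control cells at day -2. Outside the stretches it was 6.41, 6.10, 4.18 and 5.23. Stretch B had 8.80, 13.2, 10.0 and 14.6, so that both arrays of day +2 lay below both arrays of day -2 there. The raw input background was 22 to 26 on the 4 arrays, so the input of most of the cluster was dimmer than the background it was subtracted from.

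**Figure D1:**
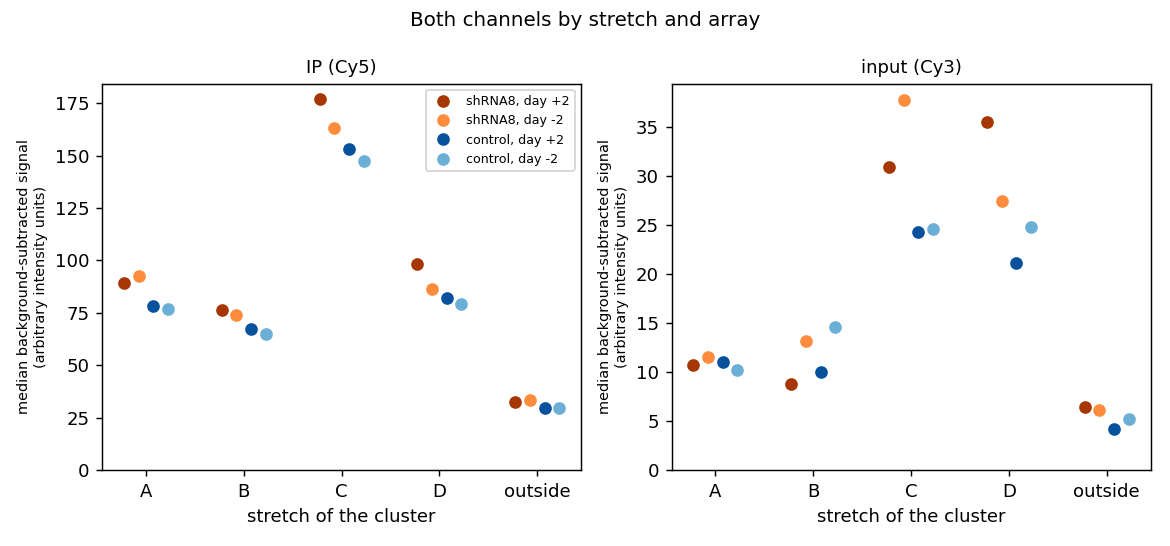
Median background-subtracted signal (arbitrary intensity units) of the IP channel and of the input channel for stretches A to D and for the probes outside them, with 1 point for each of the 4 arrays. The medians are over all probes, passing or not. In stretch C the IP medians were 147 to 177, against 29.5 to 33.6 outside the stretches, and the input medians were 24.3 to 37.8 against 4.18 to 6.41.

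Set against input, the means of the 4 stretches lay between the quartiles of all regions of the array, which were -0.78 to -0.75 and 0.29 to 0.30 on the 4 arrays. The ratio given from here on is log2 of IP over input, centred on the median of each array, so that 0 is the typical probe and positive values mean more precipitated DNA per input. Its mean over the 168 probes was -0.31 in shRNA8 cells at day +2, -0.37 in shRNA8 cells at day -2, -0.31 in control cells at day +2 and -0.32 in control cells at day -2, with an SD over probes of 1.61 to 1.68. The median region of the array lay at -0.19, -0.21, -0.20 and -0.21 in the same arrays. At day +2 and day -2 stretch C had -0.56 and -0.70 in shRNA8 cells, against -0.69 and -0.72 in control cells. Stretch D had -0.61 and -0.44 in shRNA8 cells, against -0.48 and -0.43 in control cells. Stretch A had -0.24 and -0.27 in shRNA8 cells, against -0.43 and -0.08 in control cells, and stretch B had -0.07 and -0.17 in shRNA8 cells, against -0.25 and -0.27 in control cells. The SDs over the probes of a stretch were 1.04 to 1.72, wider than the distances between the stretches. The order of stretches C and D depended on the summary. By the mean over the 4 arrays C lay at -0.67 and D at -0.49, and by the median over their probes D lay at -0.60 and C at -0.29, with A at -0.01 and B at 0.03. Over the 4 arrays the mean was -0.30 outside the stretches.

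Ratios on this array depend on probe length. Probes of 45 bp had medians of 0.02 to 0.05 over the whole array and those of 60 bp had -1.49 to -1.23. With each probe set against the median of its own length, the 4-array means were -0.29 in stretch A, -0.24 in B, -0.70 in C, -0.54 in D and -0.17 outside.

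Among the segments S3 had the lowest mean, which rests on 2 of its 6 probes. The 6 probes at chr2:174116240-174118174, between stretches A and B, had mean ratios of -1.25 in shRNA8 cells at day +2, -1.49 in shRNA8 cells at day -2, -1.54 in control cells at day +2 and -1.40 in control cells at day -2. These means lay at percentiles 7.24 to 11.4 of all 17452 regions of the array. The median of the 6 probes over the 4 arrays was -0.30, since 4 of them averaged -0.65, 0.05, 0.72 and 0.95 and the other 2 averaged -4.62 and -4.96. Within S3 the 3 passing probes of the bin at chr2:174116041-174116896 averaged -3.22, -3.46, -3.43 and -3.53, and over the 4 arrays 0.35% of the 846 bins of this kind (1000 bp of a tiled block over 3000 bp wide, at least 3 passing probes) lay below them. Both low probes were in that bin and had dim IP signals. The probe at chr2:174116852-174116896 had IP signals of 2.41, 2.01, 1.25 and 1.66 over inputs of 17.3, 16.3, 10.8 and 16.0, and the one at chr2:174116240-174116293 had IP signals of 11.8, 10.6, 6.95 and 8.74 over inputs of 34.7, 54.8, 27.7 and 50.4. In S3 the values of the lines overlapped, and so did those of the days.

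High values lay beside it. The bin at chr2:174113988-174114851, just downstream of stretch A, averaged 1.76 and 1.58 in shRNA8 cells at day +2 and day -2, against 1.32 and 1.49 in control cells, at percentile 98.5 over the 4 arrays. In the middle of the cluster, between stretches B and C, S6 at chr2:174135805-174138218 had 0.45 and 0.36 in shRNA8 cells, against 0.40 and 0.43 in control cells, at percentiles 77.5 to 81.2. S9 at chr2:174148014-174148486, which rests on 3 probes, had 0.66 and 0.42 in shRNA8 cells, against 0.66 and 0.45 in control cells. The other segments had 4-array means between -0.55 and 0.25.

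Within stretch C, bright probes of both signs stood side by side. The probe at chr2:174152842-174152886 had IP signals of 1603, 1722, 1485 and 1471 in shRNA8 cells at day +2, shRNA8 cells at day -2, control cells at day +2 and control cells at day -2, and ratios of -0.22, -0.26, -0.39 and -0.30. Next to it the probe at chr2:174153035-174153079 had ratios of -1.94, -1.96, -2.10 and -2.02, and another bright one, at chr2:174153442-174153486, had 0.88, 0.65, 0.63 and 0.53. The lowest probe of the stretch, at chr2:174154053-174154097, had -4.37, -4.20, -5.19 and -4.89, with IP signals of 3.39 to 5.85 over inputs of 20.6 to 27.2. Of these 4 probes, only this last one had a dim IP signal. Neighbouring probes up to 500 bp apart did not share their level, with r between -0.02 and 0.04 over 123 pairs in each array, while the same probe in 2 arrays correlated with r of 0.920 to 0.958 over the 168 probes. Both are descriptions, since the probes of a pair of arrays share their sequence and brightness.

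The extremes of the cluster lay outside that stretch. The lowest probe, at chr2:174131373-174131417, had ratios of -6.53, -6.62, -6.27 and -6.46, with IP signals of 3.44 to 3.98 over inputs of 48.4 to 66.5, and 0.264% of all passing probes lay below its mean. The highest, at chr2:174171244-174171288 in stretch D, had 3.33 and 2.16 in shRNA8 cells at day +2 and day -2, against 1.88 and 2.66 in control cells, with inputs of only 4.01 to 8.13. Next came chr2:174142640-174142694 with a mean of 2.25 and chr2:174104125-174104169 with 1.89.

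**Figure D2:**
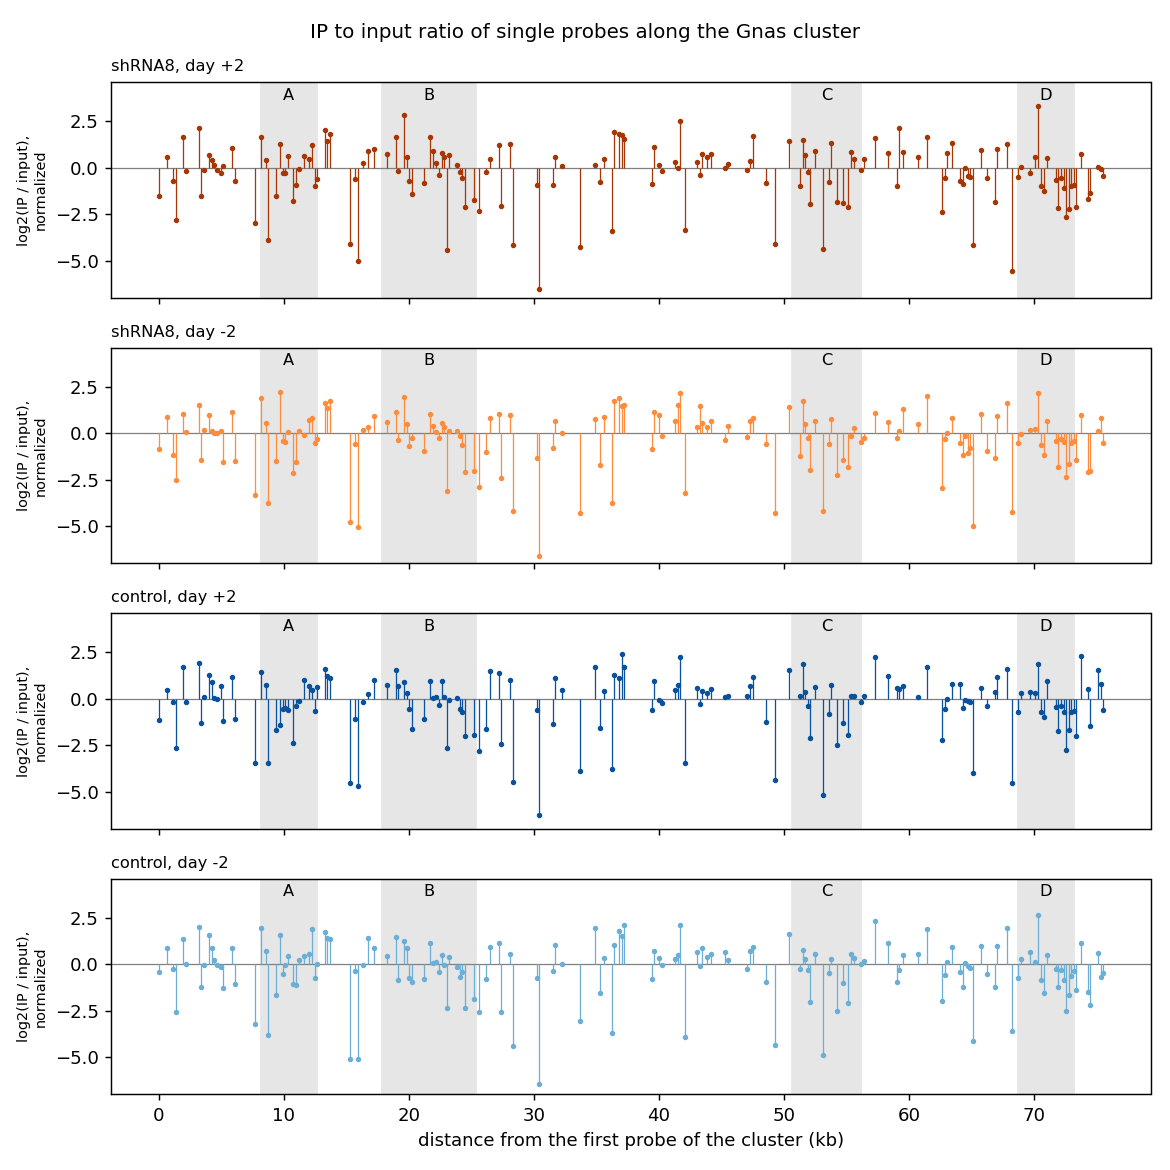
Normalized log2 ratio of IP to input (vertical axis) of the 168 passing probes against distance from the first probe of the cluster in kb, in 1 panel per array with the 4 stretches shaded. The profile is alike in the 4 panels, from -6.53 to 3.33 in shRNA8 cells at day +2 and from -6.46 to 2.66 in control cells at day -2, and low and high probes stand side by side within each stretch.

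The comparison of shRNA8 with control cells asked whether the line with an shRNA against slincRAD carried other methylation at this cluster. At day +2 the mean difference over the 168 probes was -0.00019 ± 0.66 (SD over probes), with 88 probes higher and 80 lower in shRNA8 cells. The median was 0.03, against 0.04 over all probes. A difference past 0.6 either way, which is 1.52-fold, was seen in 40 of the 168, or 23.8%, with 22.7% over all probes. None of the 11 segments reached a mean of 0.6 with 75% of probes moving the same way, the rule for a call, which 3.34% of all regions met. The segment farthest from 0 was S11 at chr2:174163537-174176518, the distal end with stretch D, where the difference was -0.32 ± 0.72 and 28 of 39 probes were lower in shRNA8 cells. Its IP difference was 0.04 and its input difference 0.29. S4 at chr2:174119197-174129306, which holds stretch B, was 0.20 ± 0.69 higher in shRNA8 cells, with 21 of 28 probes higher.

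By stretch, the difference at day +2 was 0.19 ± 0.89 in A, 0.18 ± 0.69 in B, 0.13 ± 0.52 in C and -0.12 ± 0.49 in D. With only probes whose input was well above background, the differences of A and B turned to -0.09 and -0.03. Among the 30 bins with at least 3 passing probes, 4 met the rule, against 4.85% of the 846 bins of the array. Higher in shRNA8 cells were chr2:174109946-174110887 with 1.06 ± 1.42, chr2:174111046-174111708 with 0.69 ± 0.53, both in stretch A, and chr2:174122136-174122905 in stretch B with 0.61 ± 0.29. Lower was chr2:174174110-174174974 with -0.63 ± 0.78, which begins in stretch D and lies mostly beyond its end at 174174154. The IP differences of the 4 bins were 0.01 to 0.10 and the input differences -1.12 to 0.57. Each bin rests on 3 passing probes.

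Single probes showed the same split between the channels. Lowest against control at day +2 were chr2:174175239-174175285 with -2.24, chr2:174167764-174167816 with -2.15 and chr2:174123978-174124022, in stretch B, with -1.74. In the first, the IP signal was 50.1 in shRNA8 cells and 49.8 in control cells, and the input was 28.6 in shRNA8 cells and 5.09 in control cells. Highest were chr2:174110641-174110685 in stretch A with 2.69, chr2:174120536-174120580 in stretch B with 1.95 and chr2:174160136-174160180 with 1.67. In none of these 6 did the IP channel differ by more than 0.15 on the log2 scale, while the input differed by 1.44 or more.

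At day -2 the mean difference between the lines was -0.05 ± 0.47, with 75 probes higher and 93 lower in shRNA8 cells, and a median of -0.05 against 0.02 over all probes. A difference past 0.6 was seen in 29 probes, or 17.3%, with 20.6% over all probes. Again none of the 11 segments was called, against 2.43% of all regions. S8 at chr2:174142241-174145118, between stretches B and C, had the largest mean, 0.37 ± 0.64 higher in shRNA8 cells, with 6 of 9 probes higher and a median of 0.14. The lowest mean was that of S5 at chr2:174132457-174133210, -0.25 ± 0.21, with all of its 3 probes lower. S1 at chr2:174100927-174107063, the proximal end, had a difference of -0.20 ± 0.35, with 10 of 17 probes lower. By stretch the differences were -0.19 ± 0.45 in A, 0.10 ± 0.37 in B, 0.02 ± 0.51 in C and -0.01 ± 0.31 in D, where no probe passed 0.6.

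Of the 30 bins, 1 was called at day -2, against 3.78% of bins on the array. It lay at chr2:174159943-174160899, downstream of stretch C, and was 0.67 ± 0.21 higher in shRNA8 cells, with an IP difference of 0.02 and an input difference of -0.65. The same bin differed by 0.11 ± 1.59 at day +2. The probes that stood lowest against control were chr2:174135805-174135849 with -1.21, chr2:174158249-174158293 with -1.20 and chr2:174134630-174134674 with -1.19. The highest were chr2:174144178-174144224 with 1.62, chr2:174176254-174176313 with 1.50 and chr2:174142443-174142488 with 1.05. None of these 6 was among the 6 named at day +2. With so few probes picked from 168, such a lack of overlap is no result about the lines or the days.

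**Figure D3:**
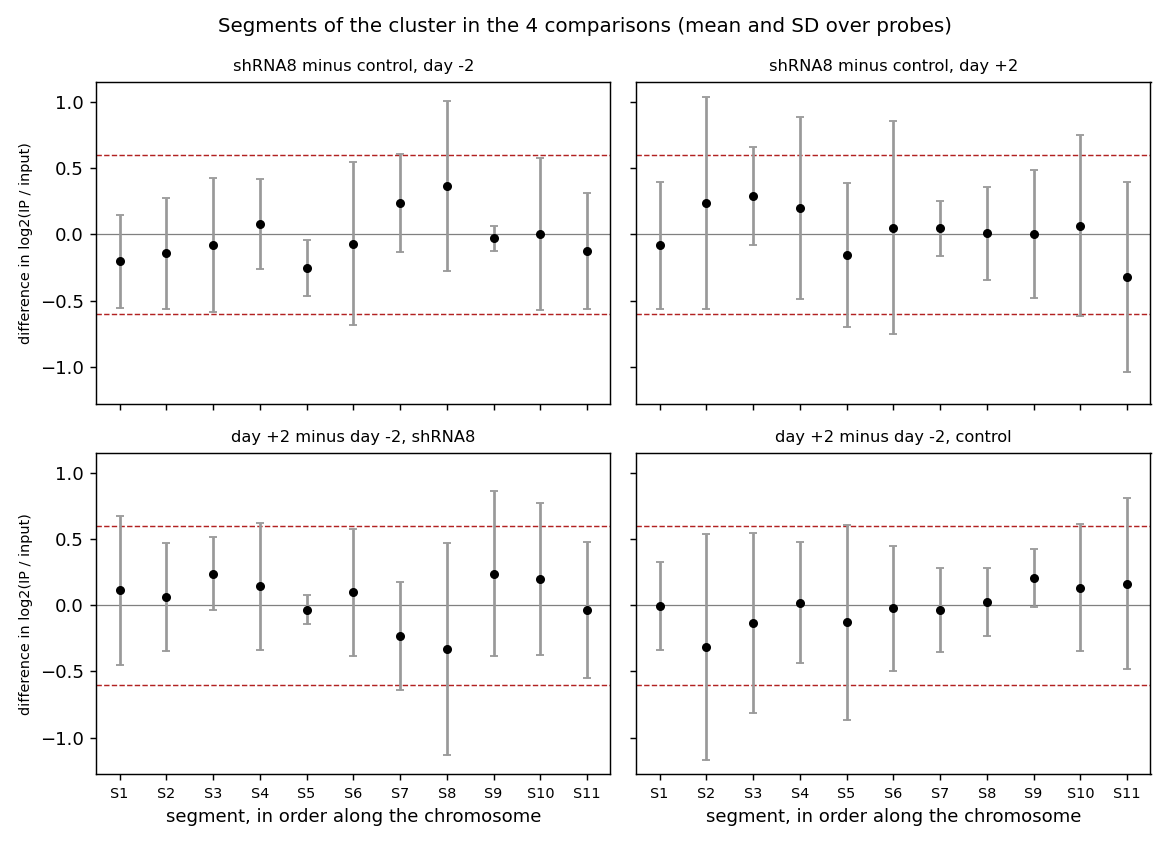
Mean difference in log2 ratio of IP to input (vertical axis, bars are the SD over probes) of segments S1 to S11 in each of the 4 comparisons, with dashed lines at the size rule of 0.6. Every segment mean lies inside the dashed lines, the farthest being 0.37 for S8 between the lines at day -2.

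The comparison of day +2 with day -2 asked how the cluster in each line differed across the start of induction. Day -2 also came before the confluence at which induction began, and no array held uninduced cells of day +2. Confluence, time in culture and the inducing mix thus cannot be told apart. In shRNA8 cells the mean change was 0.06 ± 0.51, with 96 probes higher and 72 lower at day +2, and a median of 0.05 against 0.02 over all probes. A change past 0.6 was seen in 31 probes, or 18.5%, with 18.9% over all probes. None of the 11 segments was called, against 3.19% of all regions. S8 had the mean farthest from 0, -0.33 ± 0.80, with 4 of 9 probes higher and 5 lower and a median of -0.03. S3 and S9 had means of 0.24 ± 0.28 and 0.24 ± 0.62 and medians of 0.09 and 0.12, with all 6 probes of S3 higher. By stretch the changes were 0.03 ± 0.44 in A, 0.10 ± 0.51 in B, 0.14 ± 0.37 in C and -0.17 ± 0.44 in D, where 13 of 16 probes were lower. None of the 30 bins was called, against 2.25% of bins on the array.

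The 2 largest decreases of single probes in shRNA8 cells were both in S8, chr2:174144178-174144224 with -1.86 and chr2:174142443-174142488 with -1.52, and the third was chr2:174169143-174169187 with -1.31. The first had ratios of -0.37 and 1.49 in shRNA8 cells at day +2 and day -2, against -0.28 and -0.13 in control cells. Its input was 11.6 and 3.22 in shRNA8 cells, against 7.62 and 8.04 in control cells, with IP signals of 38.5 to 46.7, so that the array of shRNA8 cells at day -2 stood alone. The largest increases were at chr2:174160136-174160180 with 2.02, chr2:174106111-174106169 with 1.60 and chr2:174171244-174171288 in stretch D with 1.17.

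In control cells the mean change was 0.00 ± 0.56, with 78 probes higher and 90 lower at day +2, and a median of -0.02 against -0.01 over all probes. A change past 0.6 was again seen in 31 probes, or 18.5%, with 19.2% over all probes. None of the 11 segments was called, against 2.09% of all regions. The largest segment mean was that of S2 at chr2:174108678-174114656, which holds stretch A, at -0.32 ± 0.85, with 13 of 20 probes lower and a median of -0.13. By stretch the changes were -0.35 ± 0.96 in A, where the median was -0.04, 0.02 ± 0.47 in B, 0.03 ± 0.39 in C and -0.06 ± 0.33 in D.

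Stretch A held 2 of the 3 bins called in control cells. Of the 30 bins 3 were called, against 3.19% of bins on the array. They were chr2:174109946-174110887 with -1.02 ± 1.70 and chr2:174111046-174111708 with -0.92 ± 0.45, both in stretch A, and chr2:174159943-174160899 with 0.84 ± 0.69. The 3 probes with the largest decreases, chr2:174110641-174110685 with -2.98, chr2:174113192-174113236 with -1.42 and chr2:174111664-174111708 with -1.30, were all in stretch A. That stretch held 16 of the 168 passing probes. The inputs of these 3 probes changed by 2.99, 1.43 and 1.19, and their IP by -0.10, -0.04 and -0.17. The largest increases were at chr2:174175239-174175285 with 2.03, chr2:174120100-174120144 in stretch B with 1.57 and chr2:174167764-174167816 with 1.55. The first and last of these were also the lowest in shRNA8 against control cells at day +2, and both comparisons use the array of control cells at day +2.

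The 2 bins of stretch A also rest on that array in both comparisons. The probe at chr2:174110641-174110685 had ratios of 1.29 in shRNA8 cells at day +2, 2.23 in shRNA8 cells at day -2, -1.40 in control cells at day +2 and 1.58 in control cells at day -2. Its IP signals were 249, 261, 205 and 216, and its inputs were 21.2, 10.9, 89.9 and 12.3. The input of control cells at day +2 stood apart from the other 3. In the same bin the far brighter probe at chr2:174110354-174110398 had ratios of -1.49, -1.50, -1.69 and -1.66, and the one at chr2:174110843-174110887 had -0.28, -0.44, -0.56 and -0.51. These 2 differed by at most 0.28 between any of the 4 arrays. The median over the 3 probes of the bin was therefore 0.28 between the lines at day +2 and -0.05 for the day change in control cells, below the size rule.

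In the second bin all 3 probes moved the same way. The probe at chr2:174111046-174111090 had -0.25 in shRNA8 cells at day +2, -0.45 in shRNA8 cells at day -2, -0.48 in control cells at day +2 and -0.06 in control cells at day -2. The probe at chr2:174111254-174111298 had 0.64, 0.08, -0.63 and 0.43, and the one at chr2:174111664-174111708 had -1.79, -2.12, -2.38 and -1.07. Their mean was lowest in control cells at day +2, at -1.16, and highest in control cells at day -2, at -0.24, with shRNA8 cells between them at -0.47 and -0.83. The inputs of the last 2 probes were 5.20 to 13.5 on all arrays, and those of the first were 156 to 283. Over the 3 probes the IP changed by -0.05 and the input by 0.93 in control cells, and by 0.14 and -0.26 in shRNA8 cells.

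**Figure D4:**
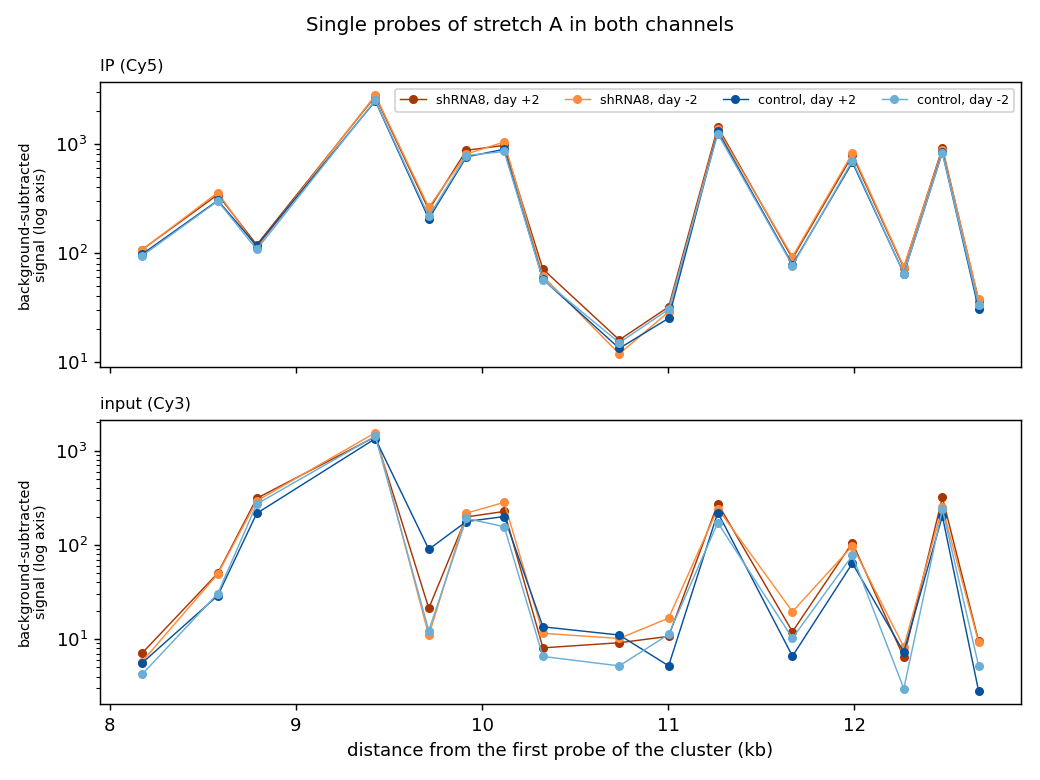
Background-subtracted signal (log axis) of the passing probes of stretch A in the IP channel and in the input channel against distance from the first probe of the cluster in kb, with 1 colour for each array. The IP signals of the 4 arrays lie close together at each probe, while the input of 1 probe is 89.9 in control cells at day +2 against 10.9 to 21.2 in the other arrays.

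The day change in shRNA8 cells minus that in control cells averaged 0.05 ± 0.73 over the 168 probes. It was past 0.6 in 50 probes, or 29.8%, with 29.6% over all probes. None of the 11 segments was called, against 5.8% of all regions, and the largest segment mean was 0.38 ± 0.82 in S2, with a median of 0.22. In stretch A the difference was 0.37 ± 0.92, and it turned to -0.10 with only probes whose input was well above background. By bins, 2 of 30 were called, against 6.74% of bins on the array, and both were those of stretch A, with 0.76 ± 1.11 and 1.29 ± 0.58. The 4 arrays leave no degree of freedom to test this difference.

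In all 4 comparisons the input channel carried most of the spread. Over the 168 probes the SD of the IP differences was 0.11 to 0.13 and that of the input differences 0.47 to 0.65 on the log2 scale, and input made up 93.2% to 97.0% of the variance of both channels together. No probe of the cluster differed by more than 0.66 in IP in any of the 4 comparisons, while the largest input difference was 2.99. Large differences of the ratio were more frequent among probes with dim input. At day +2 between the lines, 8 of the 101 probes with input well above background in every array were past 0.6, and 32 of the other 67 were. In the day change of control cells these counts were 6 of 101 and 25 of 67. Bright probes of the whole array were past 0.6 in 10.1% and 5.68% of cases in the same comparisons, and dim ones in 40.4% and 38.0%. The part of input brightness in the bins of stretch A was not tested beyond these values.

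Distal to the cluster, regions of chromosome 2 were often lower at day +2. In the window from 174 to 176 Mb of chromosome 2 lay 32 regions, the 11 segments of the cluster among them. This window was not among the planned flanks, which lay within 1 Mb on either side and are given last. It reaches much farther on the distal side of the cluster than on the proximal side. In shRNA8 cells 13 of the other 21 regions were lower at day +2 than at day -2, or 61.9%, and none of the cluster's 11 was, against 2.21% of all regions of the array that were lower. In control cells 5 of the other 21 were lower, or 23.8%, and again none of the cluster's 11, against 1.11% of all regions. The median change in shRNA8 cells was 0.10 over the cluster's segments and -0.85 over the other 21 regions. In control cells these medians were -0.01 and -0.44. With 11 segments, a count of 0 is what the shares of the whole array would give, so it is no result about the cluster. The other 21 regions also lay at another level of the ratio, with medians of -2.94 and -2.05 in shRNA8 cells at day +2 and day -2, against -2.54 and -2.08 in control cells. The cluster's segments had medians of -0.07 and -0.14 in shRNA8 cells, against 0.02 and 0.03 in control cells. Of the regions lower in shRNA8 cells the nearest began at position 174892772, 716064 bp beyond the last probe of the cluster. Within 1 Mb on the distal side, 4 of 10 regions were lower at day +2 in shRNA8 cells and 2 of 10 in control cells. None of the 6 regions within 1 Mb on the proximal side was called in any of the 4 comparisons.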

How the data were processed

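The 4 two-colour arrays held Cy5-labelled IP and Cy3-labelled input DNA, 1 µg each, per the labels' protocols. For shRNA8 cells the input label of day +2 also calls the cells not yet induced, and the day it gives was used. The authors deposited spot intensity values of both channels (median signal, background, background-subtracted and dye-normalized processed signal) from Agilent Feature Extraction 11.0.1.1, and per the file headers the coordinates are mm9. The log10 ratio that the authors deposited served as an alternative, and their deposited p-value was left aside. In the submitters' processing notes limma appears with no role.

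The value analysed was the log2 ratio of processed Cy5 to Cy3. Spots marked as saturated, non-uniform or outlying, which left 174301 of 174638, and probes whose input was not above background in all 4 arrays were left out. The remaining 95060 ratios were median centred and quantile normalized, which removes any global difference between arrays. Probes within 1000 bp formed regions of at least 3 probes, and a call needed a mean difference of 0.6 and 75% of probes moving that way. Bins were 1000 bp of a tiled block. Probes named were the 3 most positive and 3 most negative differences of each comparison and the 3 highest and lowest levels, and further probes of S3 and of stretches A and C were chosen after their values were seen. Members and lists were chosen with earlier results of these data known, and the rule for stretches after probe lengths were seen. No test was made, since each group has 1 array, and an additive model of line plus day, with a lone residual degree of freedom, was left out. Thus no difference can be set against a spread between replicates. An SD is over probes of the same arrays. Precision is limited by the number of arrays. The region calls were tested on simulated data. Promoter sequences came from RefSeq tables of GRCm38.p6, where Gnas matched 4 entries, and no coordinate was carried between builds. Alternatives covered normalization, value, filter, probe length, size rule, share of probes and summary. The software was R 4.3.3 with limma 3.58.1 and Python 3.11.15 with pandas 2.3.3, matplotlib 3.10.9, numpy 2.4.6 and scipy 1.17.1.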

Additional observations from a re-analysis of the deposited data

Results flagged for a closer look

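The bin at chr2:174111046-174111708 in stretch A changed in opposite directions between day -2 and day +2 in the 2 lines. At day +2 it was 0.37 higher than at day -2 in shRNA8 cells and 0.92 lower in control cells (log2 ratio of IP to input, change of -0.92), a difference of 1.29 ± 0.58 (SD over 3 probes), with all 3 probes showing both directions. By the same rule 6.74% of bins on the array were called for the difference of the day changes. The inputs of 2 of its 3 probes were only 5.20 to 13.5 on all arrays. Between the lines it was 0.69 higher in shRNA8 cells at day +2 and 0.596 lower at day -2 (difference of -0.596), which fell short of the size rule of 0.6. The difference between the lines was not tested, since each line and day has 1 array. Its IP signal changed by -0.05 in control cells, where its input changed by 0.93. In shRNA8 cells its IP changed by 0.14 and its input by -0.26. Between the lines its IP differed by -0.17 and its input by 0.42 at day -2, against 0.02 and -0.77 at day +2.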

How the results depend on the processing

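None of the 11 segments was called under the settings reported. No segment of the cluster was called under 13 alternatives either, but this says little, since few regions of the array were. Segments were formed anew from the probes that each setting kept. Where the filter changed, the segments counted were therefore not the same 11. The share of all regions called was at most 0.00573% in the IP channel alone and 0.138% without background subtraction, and 7.43% to 13.3% with a size of 0.4. With single channels set aside, the difference over the cluster ranged from -0.04 to 0.03 between the lines at day +2 and -0.06 to 0.04 at day -2. The day change ranged from -0.05 to 0.08 in shRNA8 cells and -0.05 to 0.03 in control cells. These are means over the probes, or their median where that was the alternative. Of 55 segment differences 28 turned sign under at least 1 alternative of the ratio, as did 12 of 20 stretch differences. Of 1051 values of segments, stretches and bins, 57 moved by more than the SD over probes, 41 of them in a single channel, where input alone turns the sign by its construction. No paired analysis was possible because the labels give no replicate numbers that groups share. Each group has 1 array, so none was left out.

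The counts of called bins moved with the setting, and so did those of the whole array. Without the background filter 74 bins could be called, and 7 were between the lines at day +2 (5.89% on the array), 4 at day -2 (5.3%), 6 in the day change of shRNA8 cells (5.09%), 5 in that of control cells (4.39%) and 11 in their difference (11.4%), against 4, 1, 0, 3 and 2 of 30. With input well above background 10 bins could be called, neither bin of stretch A among them, and 0, 1, 0, 0 and 0 were (0% to 1.24%). Of 30 bins, 1, 0, 0, 0 and 0 were called without background subtraction (0% to 0.118%) and 0 in the IP channel alone (0%). A size of 0.4 gave 8, 3, 3, 3 and 4 (7.92% to 16%), a size of 1 gave 1, 0, 0, 1 and 1 (0.236% to 1.65%), and a loess of the ratio on intensity gave 5, 3, 0, 3 and 4 (4.73% to 10.5%). At day +2 between the lines, median centring alone and the input channel alone each gave 2 (5.32%). The median of the probes gave 1 for the difference of the day changes (6.03%).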
